A study of Mus musculus with 6 samples.

Results

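The expression of 10 genes that cut and load peptides for MHC class I was examined in mouse dendritic cells treated or not with DB2313, an inhibitor of the transcription factor Spi1 (PU.1). They were Psmb8, Psmb9 and Psmb10, Psme1 and Psme2, Tap1 and Tap2, Tapbp and Tapbpl, and Erap1. These were chosen by name for their place in the pathway, and all 10 were found among the 54532 gene rows of the count table. The 6 libraries comprised 3 of dendritic cells labelled control and 3 of dendritic cells labelled DB2313, with 16146743 to 19764677 counts each. All were kept in culture medium with fetal bovine serum. The labels give no strain, age, dose or time of treatment, and do not say whether the libraries of a group came from separate animals or cultures. The p-values therefore measure the spread between these libraries, which may be technical. The methods of the study describe peritoneal macrophages rather than dendritic cells, and give a dose of DB2313 for macrophages. The study also treated monocytes with GM-CSF, with or without DB2313. Whether that dose or that culture applies to these libraries is not stated. The labelled cell type was therefore checked against markers, and the values are given further on.

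MHC class I molecules show short peptides from the cell's own proteins to CD8 T cells. Most of these peptides are cut by the proteasome. In immune cells and after interferon, the subunits Psmb8, Psmb9 and Psmb10 take the place of the constitutive catalytic subunits Psmb5, Psmb6 and Psmb7, which gives the immunoproteasome. Psme1 and Psme2 form the PA28 cap that opens its core. The peptides are pumped into the endoplasmic reticulum by Tap1 and Tap2, trimmed there by the aminopeptidase Erap1, and fitted into class I by tapasin (Tapbp) and the related editor TAPBPR (Tapbpl). Dendritic cells use this pathway to prime CD8 T cells.

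None of the 10 genes was called changed by DB2313, where a call is an adjusted p under 0.05 in the quasi-likelihood test of edgeR over all genes. Over all 14174 genes tested, 10.6% were called, 4.66% higher and 5.94% lower, so that 0 of 10 is close to this background. At an unadjusted p under 0.05 there were 3 members (Psme1, Tapbp and Tapbpl), against 23.3% of all genes. By DESeq2 there were again 0 members called, against 11.6% of all genes, and 5 at an unadjusted p under 0.05, against 21.7%. By limma-voom there were 0 called and 4 at an unadjusted p under 0.05, against 10.6% and 23.5% of all genes. The log2 fold change of DB2313 against control was above 0 for 8 members and below 0 for 2, Tapbp and Erap1, while 50.1% of all genes were above 0. Its median was 0.13 over the members and 8.3e-04 over all genes. Its median size regardless of sign was 0.14 for the members and 0.16 for all genes. In these cultures, fewer cells of a type and less RNA per cell cannot be told apart.

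The counts allowed narrow limits. Each member had between 1091 and 10654 counts per library. The 95% intervals of the 10 fold changes all lay between 0.783 and 1.39 (DB2313 divided by control). A 2-fold change of any member was thus outside its interval, whereas differences of the size measured, from -0.19 to 0.22 on the log2 scale, were not separated from the spread between libraries after adjustment. The plot of log2 fold changes sets the members beside the constitutive subunits, class I itself and regulators of class I genes.

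**Figure D1:**
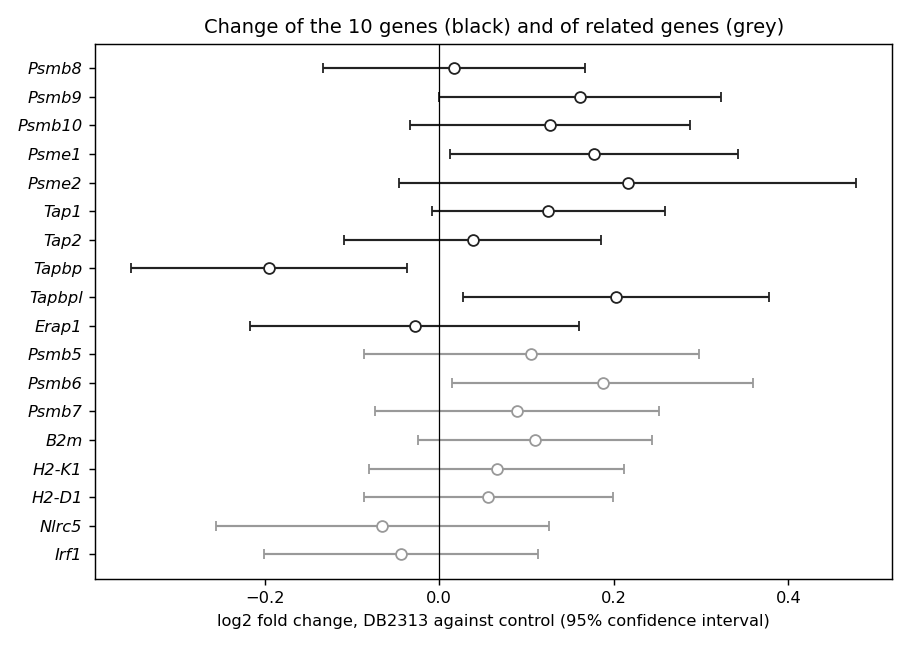
Log2 fold change of DB2313 against control (x axis) with its 95% interval for the 10 members in black and 8 related genes in grey, from the edgeR fit to 3 control and 3 DB2313 libraries. Open points have an adjusted p of 0.05 or more, which holds for all genes drawn, and the members lie between -0.19 and 0.22.

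Of the catalytic subunits, Psmb8 (LMP7) carries the chymotrypsin-like activity of the immunoproteasome. The gene lies at chr17:34197721-34201454 on the plus strand of GRCm38. Psmb8 was at 365, 367 and 390.0 CPM (the counts of a gene scaled to the size of the library) in the control libraries 1 to 3 and at 403, 380.1 and 352 CPM in the DB2313 libraries 1 to 3. The groups overlapped, and DB2313 replicates held both the highest and the lowest value. The means were 374 ± 13.8 and 378 ± 25.6 CPM (SD, n = 3 each), with a log2 fold change of 0.02 (SE 0.07, edgeR adjusted p = 0.924).

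Psmb9 (LMP2), the subunit that cuts after hydrophobic residues, was at 227, 220.2 and 247 CPM in the control libraries and at 275, 263 and 238 CPM in the DB2313 libraries. The first 2 DB2313 libraries were above every control and the third lay among the controls. The means were 231 ± 14.1 and 259 ± 19.3 CPM, and the log2 fold change was 0.16 (SE 0.08, edgeR adjusted p = 0.215). Its gene is at chr17:34181988-34187764 on the minus strand.

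Psmb10 (MECL-1), the inducible subunit at the trypsin-like position, lies outside the MHC at chr8:105935735-105938444 on the minus strand. Its levels were 235, 247 and 251 CPM in the control libraries and 291, 265 and 244 CPM in the DB2313 libraries. The order within the treated group was that of Psmb9, with replicate 3 inside the control range. The means were 244 ± 8.51 and 267 ± 23.6 CPM. The log2 fold change was 0.13 (SE 0.08, edgeR adjusted p = 0.342).

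**Figure D2:**
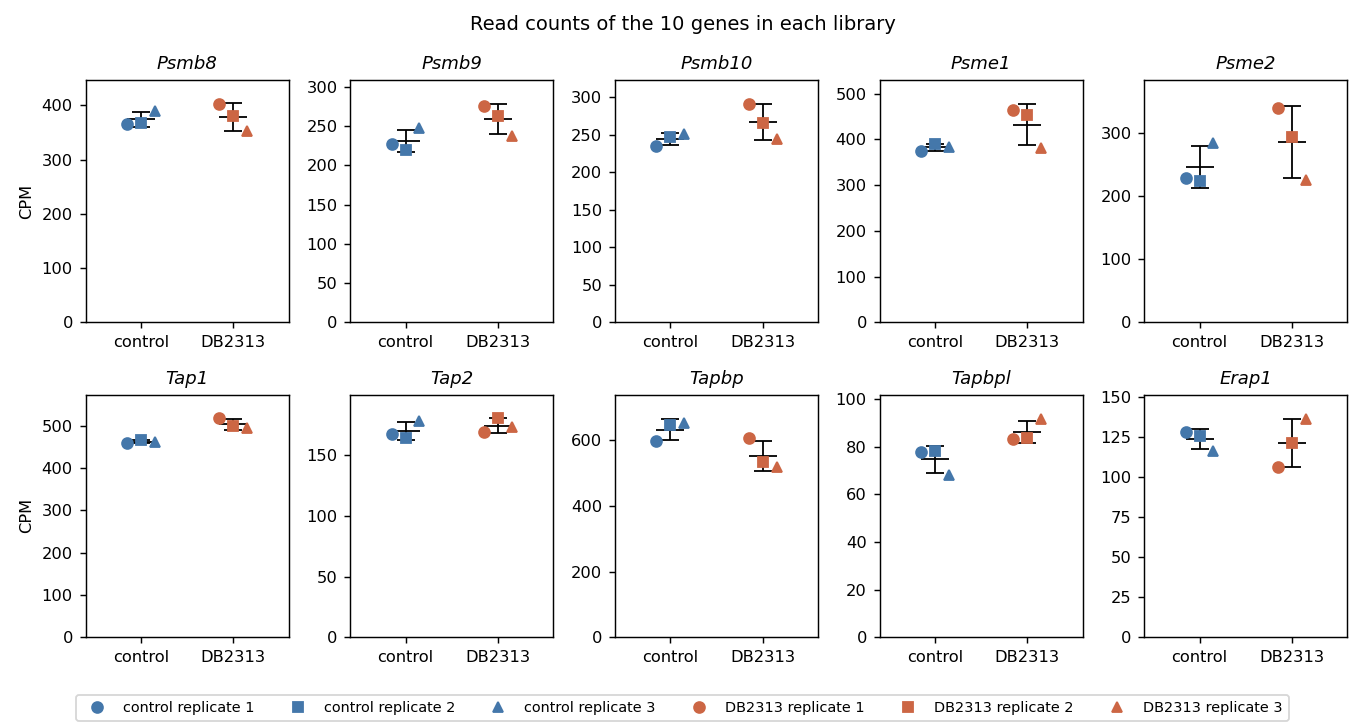
CPM (y axis, a separate scale in each panel) of the 10 members in the 3 control and the 3 DB2313 libraries, with points for libraries and bars for the mean ± SD. The groups do not overlap for Tap1 and Tapbpl, and overlap for the other 8 genes.

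Because an inducible subunit displaces a constitutive one, each pair was also compared within a library, as the ratio of counts per kilobase of the table's gene length. Psmb8 to Psmb5 was 1.17, 1.08 and 1.03 in the control libraries and 0.997, 1.03 and 1.06 in the DB2313 libraries. Psmb9 to Psmb6 was 0.928, 0.992 and 0.987 in the control and 0.930, 0.974 and 0.950 in the DB2313 libraries. Psmb10 to Psmb7 was 7.23, 7.43 and 7.60 in the control and 7.90, 7.79 and 7.14 in the DB2313 libraries. At each of the 3 catalytic positions the ratios of the groups overlapped. As a share of the transcripts for its position, counted per kilobase, the inducible subunit made up 52.3 ± 1.58% for Psmb8 in control and 50.7 ± 0.774% with DB2313. For Psmb9 the shares were 49.2 ± 0.935% and 48.8 ± 0.570%, and for Psmb10 88.1 ± 0.263% and 88.4 ± 0.567% (SD, n = 3 each). By this measure the inducible form was about as abundant as the constitutive form at 2 positions and far more abundant at the third, in both groups. The measure rests on the table's gene lengths, such as 2736 bp for Psmb8 and 899 bp for Psmb5. In CPM, without length, the control means were 374 and 112 for Psmb8 and Psmb5 and 231 and 122 for Psmb9 and Psmb6. For Psmb10 and Psmb7 they were 244 and 66.0 CPM. In addition, 405 bp of Psmb7 exons are shared with Nek6 on the opposite strand.

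The differences of the log2 ratios, DB2313 minus control, were -0.090 for Psmb8 to Psmb5, -0.026 for Psmb9 to Psmb6 and 0.035 for Psmb10 to Psmb7. By the exact two-sided permutation test the p-values were 0.2, 0.6 and 0.6, and 0.467, 0.8 and 0.8 after adjustment over the 7 ratios tested. With 3 libraries against 3 this test cannot go below 0.1. The constitutive subunits were not called either. Psmb5 had a log2 fold change of 0.11 (adjusted p = 0.539), Psmb6 of 0.19 (adjusted p = 0.173) and Psmb7 of 0.09 (adjusted p = 0.541, all by edgeR).

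**Figure D3:**
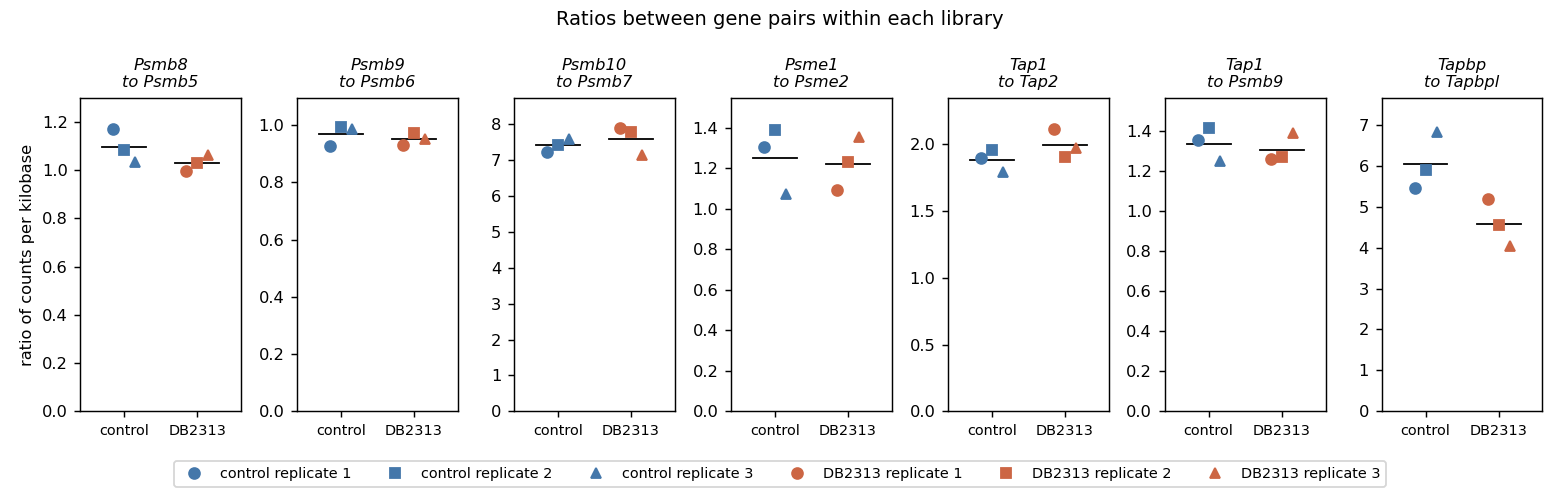
Ratio of counts per kilobase of 7 gene pairs within each library (y axis), with points for the 3 control and 3 DB2313 libraries and lines at the geometric means. The groups do not overlap for Tapbp to Tapbpl, which was 5.47 to 6.83 in the control and 4.05 to 5.19 in the DB2313 libraries, and overlap for the other 6 pairs.

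Psme1 and Psme2 encode the PA28 alpha and beta subunits and lie 5911 bp apart on chromosome 14, at chr14:55578123-55581529 on the plus strand and chr14:55587441-55591113 on the minus strand. Psme1 was at 374, 391 and 384 CPM in the control libraries and at 464, 453 and 382 CPM in the DB2313 libraries. Replicates 1 and 2 of the treated group stood well above the controls, and replicate 3 lay between control replicates 1 and 3. The means were 383 ± 8.30 and 433 ± 44.5 CPM, and the log2 fold change was 0.18 (SE 0.08, edgeR adjusted p = 0.179).

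Psme2 was at 229, 224 and 285 CPM in the control libraries and at 339, 293 and 225 CPM in the DB2313 libraries. It had the widest spread of the members, since control replicate 3 stood apart above its group and DB2313 replicate 3 was level with the lowest control. The means were 246 ± 33.7 and 286 ± 57.4 CPM, and the log2 fold change was 0.22 (SE 0.12, edgeR adjusted p = 0.320). The ratio of Psme1 to Psme2 per kilobase was 1.30, 1.39 and 1.07 in the control and 1.09, 1.23 and 1.35 in the DB2313 libraries, overlapping, with a log2 difference of -0.033 (exact permutation p = 0.8, adjusted p = 0.8).

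The value of Psme2 cannot be read without its near-copy. Psme2b, an intronless retrogene on chromosome 11, shares 715 of the 720 coding bases of Psme2 (99.3%), with no gap and a longest identical stretch of 311 bp. Reads from the coding sequence that cover none of the differing bases cannot be placed from their sequence. The share of such reads was not tested, and how reads with several matches were counted is not given in the sources used here. All 5 differences fall within coding bases 301 to 560, which are shown because, within the coding sequence, the capitals are the bases that separate the genes. The match found between the transcripts was 794 bp long, whereas the table gives Psme2 a length of 1764 bp. How many reads of Psme2 came from outside the match was not tested. Coding bases 301 to 560 of both genes are given 5′ to 3′ on the coding strand from GRCm38, with differing bases in capitals. Those of Psme2 are joined from 5 exons within chr14:55587733-55589360 and those of Psme2b lie in 1 exon at chr11:48945559-48945818, both on the minus strand.
Psme2: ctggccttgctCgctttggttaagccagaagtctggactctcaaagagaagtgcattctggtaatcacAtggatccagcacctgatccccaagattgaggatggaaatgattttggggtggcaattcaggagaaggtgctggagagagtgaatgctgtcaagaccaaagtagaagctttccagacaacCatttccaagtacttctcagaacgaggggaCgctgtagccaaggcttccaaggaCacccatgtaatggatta
Psme2b: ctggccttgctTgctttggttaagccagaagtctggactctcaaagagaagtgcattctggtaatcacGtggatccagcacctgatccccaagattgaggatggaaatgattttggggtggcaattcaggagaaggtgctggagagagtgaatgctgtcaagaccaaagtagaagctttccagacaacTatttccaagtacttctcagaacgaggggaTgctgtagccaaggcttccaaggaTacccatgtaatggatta

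Psme2b was at 162, 163 and 134 CPM in the control libraries and at 129.9, 134 and 159 CPM in the DB2313 libraries. Control replicate 3, high for Psme2, was the lowest of its group for Psme2b, and DB2313 replicate 3, low for Psme2, was the highest of its group. The share of the pair assigned to Psme2b was 41.4, 42.2 and 32.0% in the control and 27.7, 31.4 and 41.4% in the DB2313 libraries. Summed over both genes the levels were 391, 388 and 419.6 CPM and then 469, 428 and 385 CPM, so that control replicate 3 stood less far apart. The sums were 399.7 ± 17.4 and 427 ± 42.3 CPM. Fitted as 1 gene, an alternative chosen after seeing the data, the pair had a log2 fold change of 0.10 (edgeR adjusted p = 0.499), against 0.22 for Psme2 alone and -0.12 for Psme2b alone (adjusted p = 0.499). The value printed for Psme2 is therefore uncertain.

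**Figure D4:**
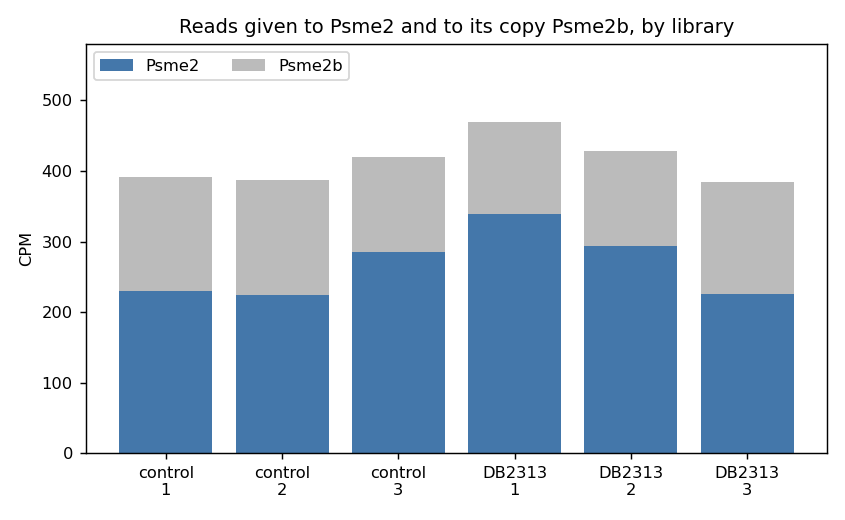
CPM (y axis, from 0) assigned to Psme2 and to its near-copy Psme2b, stacked, in each of the 6 libraries. The part given to Psme2b was 32.0 to 42.2% in the control and 27.7 to 41.4% in the DB2313 libraries, and the summed height ranged from 385 to 469 CPM.

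Tap1 and Tap2 form the peptide pump of the endoplasmic reticulum. Tap1 lies at chr17:34187553-34197225 and Tap2 at chr17:34203527-34216321, both on the plus strand, with Psmb8 between them. Tap1 was at 459, 466 and 462 CPM in the control libraries and at 518, 499 and 494 CPM in the DB2313 libraries. Every treated library was above every control, which held for 12.9% of all genes tested. The means of 462 ± 3.43 and 504 ± 12.9 CPM gave a log2 fold change of 0.13 (SE 0.06, edgeR adjusted p = 0.249). The control libraries of Tap1 lay closer together than those of any other member, with a coefficient of variation of 0.743%.

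Tap2, the other chain of the pump, was at 167, 164 and 178 CPM in the control and at 169, 181 and 173 CPM in the DB2313 libraries. The groups overlapped widely, at means of 169.7 ± 7.29 and 174 ± 5.89 CPM, and the log2 fold change was 0.04 (SE 0.07, edgeR adjusted p = 0.799). The ratio of Tap1 to Tap2 per kilobase was 1.90, 1.96 and 1.79 in the control and 2.12, 1.91 and 1.97 in the DB2313 libraries. Its log2 difference of 0.086 did not pass the exact permutation test (p = 0.2, adjusted p = 0.467).

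Psmb9, Tap1, Psmb8 and Tap2 follow each other within 34334 bp of the MHC class II region, with 495 bp between Tap1 and Psmb8 and 2072 bp between Psmb8 and Tap2. Psmb9 and Tap1 are transcribed away from each other, and their annotated ends share 212 bp of exon on opposite strands. Since it is not stated whether counting used strand, reads from those bases cannot be assigned to either gene from the table. The same holds for 498 bp of Psmb8 and 533 bp of Tap2 that overlap other annotated genes on the opposite strand. The RefSeq start sites of the pair lie 226 bp apart. The 225 bases between them, chr17:34187331-34187555 in GRCm38.p6, are shown because this single interval lies before both RefSeq starts, written 5′ to 3′ on the plus strand, which is that of Tap1, with no base capitalised.
Psmb9 to Tap1: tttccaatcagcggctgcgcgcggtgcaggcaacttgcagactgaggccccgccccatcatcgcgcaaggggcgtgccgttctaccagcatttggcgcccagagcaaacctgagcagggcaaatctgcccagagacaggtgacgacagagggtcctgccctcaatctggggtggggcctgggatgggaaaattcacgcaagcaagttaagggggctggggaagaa

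The ratio of this divergent pair varied among the libraries of both groups. Tap1 to Psmb9 per kilobase was 1.35, 1.41 and 1.25 in the control libraries and 1.26, 1.27 and 1.39 in the DB2313 libraries, with overlapping groups and a log2 difference of -0.035 (exact permutation p = 0.7, adjusted p = 0.8).

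Promoter windows from RefSeq (250 bases before to 50 after each start, GRCm38.p6) were given for 8 of the 10 members, in 9 windows. Tap2 and Tapbpl are named only. Both strands were searched for 4 motifs. The ISRE core bound by interferon regulators (GAAA and GAAA with any 2 bases between) was in 3.44% of all 32851 windows and in those of 2 members, Psme1 and Erap1. The GAS element of interferon gamma response (TTCNNNGAA) was in 8.30% of all windows and in that of Psmb8. The PU box (GAGGAA), a core recognised by Spi1, was in 28.3% of all windows and in those of Psme1 and Psme2. The ETS-IRF composite motif (GGAA and GAAA with any 2 bases between), to which Spi1 binds together with an interferon regulator, was in 2.72% of all windows and in that of Psme1, where it overlaps the ISRE match. The Psmb9 to Tap1 interval held no match to any of the 4, which says only that these letters are not in it. Stretches of 30 bases around matches in 3 members are shown because they hold the interferon and ETS-IRF motifs searched, with the match in capitals, 5′ to 3′ on the plus strand, which is that of the gene. A match is a description of letters and no evidence of binding.
Erap1 ISRE, chr13:74639839-74639868: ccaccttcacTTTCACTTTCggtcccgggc
Psme1 ISRE, chr14:55578493-55578522: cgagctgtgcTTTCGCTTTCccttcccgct
Psme1 ETS-IRF, chr14:55578499-55578528: gtgctttcgcTTTCCCTTCCcgctgcccac
Psmb8 GAS, chr17:34198087-34198116: gtcctccgctgTTCCCAGAAgatgcccccc

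Tapasin, encoded by Tapbp, holds empty class I next to the pump and selects peptides that bind well. Its gene is at chr17:33915899-33929288 on the plus strand and shares 149 bp of exon with Zbtb22 on that strand. It also shares 904 bp of exon with Gm19412 on the opposite strand, a gene with 2 counts summed over the libraries. Tapbp was at 596, 647 and 654 CPM in the control libraries and at 605, 534 and 519 CPM in the DB2313 libraries. Replicates 2 and 3 of the treated group were below every control, and replicate 1 was above control replicate 1. The means were 632 ± 31.4 and 553 ± 46.1 CPM, and the log2 fold change was -0.19 (SE 0.07). The unadjusted p of 0.0191 in the edgeR fit became 0.117 after adjustment, the smallest of the 10 members. With an offset for gene length, Tapbp was called lower by edgeR, with a log2 fold change of -0.21 and an adjusted p of 0.0339, where 6.93% of all genes were called lower. With DB2313 replicate 1 left out it was also called, at -0.26 and an adjusted p of 0.0139, where 6.33% of all genes were called lower.

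Tapbpl encodes TAPBPR, which edits the peptides of class I away from the pump and is not part of the loading complex. Its gene, at chr6:125223933-125231860 on the minus strand, had the fewest counts of the members. It was at 77.8, 78.4 and 68.3 CPM in the control libraries and at 83.2, 83.7 and 91.6 CPM in the DB2313 libraries. All treated libraries were above all controls, as in 12.9% of all genes, and the means were 74.9 ± 5.67 and 86.2 ± 4.67 CPM. Tapbpl had a log2 fold change of 0.20 (SE 0.08), whose edgeR p of 0.0265 became 0.145 after adjustment.

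The 2 editors thus had differences of opposite sign, and neither gene was called. Short stretches of their transcripts match 20 other genes for Tapbp and 78 for Tapbpl. How reads with several matches were counted is not given in the sources used here. Tapbp to Tapbpl per kilobase was 5.47, 5.89 and 6.83 in the control and 5.19, 4.55 and 4.05 in the DB2313 libraries. Every treated library was below every control, and the log2 difference was -0.40. The exact permutation p was 0.1, the smallest that 3 against 3 libraries can give, and 0.467 after adjustment over the 7 ratios. Leaving out 1 library at a time, the difference stayed between -0.49 and -0.31.

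Erap1 shortens peptides at the amino end to the length that fits class I. At chr13:74639568-74693201 on the plus strand, it is the longest member, and 834 bp of its exons are shared with Cast on the other strand. Erap1 was at 128, 126 and 116 CPM in the control and at 106, 121 and 136 CPM in the DB2313 libraries. Treated replicates gave both the lowest and the highest value. The means were 123 ± 6.21 and 121 ± 14.9 CPM. The log2 fold change was -0.03 (SE 0.09, edgeR adjusted p = 0.894).

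Levels were compared between members as CPM per kilobase of gene length, so their order depends on the table's lengths, which the SD does not cover. In CPM alone, Tap1 (462) was above Psme1 (383) and Erap1 (123) above Tapbpl (74.9) in the control means. In the control libraries Tapbp was highest at 192 ± 9.51, followed by Psme1 at 173 ± 3.76, Psmb10 at 143 ± 4.99, Psme2 at 139.6 ± 19.1 and Psmb8 at 137 ± 5.04 (SD, n = 3 each). Below these came Tap1 at 84.4 ± 0.627, Psmb9 at 63.2 ± 3.86, Tap2 at 44.9 ± 1.93, Tapbpl at 31.8 ± 2.41 and Erap1 at 16.95 ± 0.853. The levels spanned 11.3-fold. Psmb10, Psme2 and Psmb8 overlapped as neighbours in this order, and the others were separate from their neighbours. With DB2313, Psme1 at 196 ± 20.2 stood before Tapbp at 168 ± 14.0, and Psme2 at 162 ± 32.5 before Psmb10, but both pairs overlapped between libraries, and the level of Psme2 carries the limit of its near-copy. From Psmb8 downwards the order was the same as in the control libraries.

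The 3 treated libraries differed more among themselves than the controls did. Over all genes, the chi-square per degree of freedom between a pair of libraries was 4.77 to 5.28 for the controls and 7.43 to 17.7 for DB2313. The coefficient of variation was larger with DB2313 for 8 of the 10 members, at 2.56 to 20.1% against 0.743 to 13.7% in the control libraries. Of the treated libraries, replicate 1 was highest for 7 members and replicate 3 was lowest for 7. Several summed marker lists had that order too, and others did not. The 10 dendritic cell markers summed to 9655, 8873 and 8077 CPM in DB2313 replicates 1 to 3, whereas the 8 macrophage markers had the opposite order at 1147, 1215 and 1390 CPM. Most of the dendritic cell sum was Cd74, at 6598, 5988 and 5384 CPM. Ccr7, H2-Ab1 and Flt3 fell in that order too. Zbtb46 had the opposite order at 66.7, 74.8 and 81.4 CPM, and the other dendritic cell markers had neither. The 7 T cell markers summed to 254, 206 and 164 CPM in DB2313 replicates 1 to 3 and to 173 to 195 CPM in the control libraries, the 6 neutrophil markers to 3307, 2754 and 2543 CPM against 2469 to 2771, and the 6 mast cell and basophil markers to 2756, 2633 and 2272 CPM against 2253 to 2443. Of the last 3 lists 0 T cell markers, 2 neutrophil markers (Ly6g and Elane) and 1 mast cell marker (Fcer1a) were called higher. Over all genes 4.66% were called higher, and 0 markers of these lists were called lower. Camp of the neutrophil list and Ms4a2 of the mast cell list went the other way. Their log2 fold changes were -0.29 and -0.17 (edgeR adjusted p = 0.228 and 0.217). The part of any of these lists in the values of the members was not tested.

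The calls changed when DB2313 replicate 3 was left out. Without it, edgeR called 3 members higher, namely Psme2 (log2 fold change 0.36, adjusted p = 0.00438), Psme1 (0.26, adjusted p = 0.00504) and Psmb9 (0.22, adjusted p = 0.0303), where 7.55% of all genes were called higher. For Psme2 the limit given by its near-copy holds here too. Without DB2313 replicate 1, Tapbp alone was called. With any 1 of the other 4 libraries left out, no member was called.

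**Figure D5:**
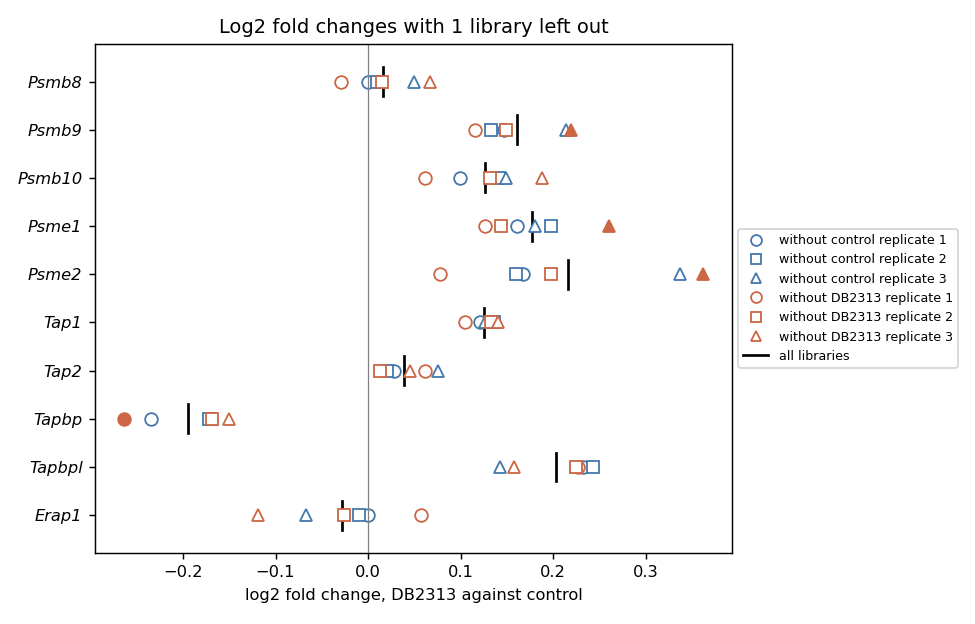
Log2 fold change of DB2313 against control (x axis) of the 10 members with 1 library left out at a time, with the value over all 6 libraries as a vertical black line and filled points for an adjusted p under 0.05. The filled points are Psme2, Psme1 and Psmb9 without DB2313 replicate 3 and Tapbp without DB2313 replicate 1.

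The libraries held markers of dendritic cells and of macrophages, and also of neutrophils, of mast cells and basophils, and of T cells. Of 10 dendritic cell markers, 9 had a mean over the 6 libraries above 1 CPM and Cd209a did not, and Xcr1, a marker of cross-presenting dendritic cells, was near that level at 0.877 to 1.32 CPM. Cd74 averaged 6548 CPM and Zbtb46, a factor of conventional dendritic cells, 84.9 CPM in the control libraries. All 8 macrophage markers had means above 1 CPM as well, with sums of 1411 to 1478 CPM in the control and 1147 to 1390 CPM in the DB2313 libraries. The dendritic cell markers summed to 9649 to 9882 CPM and 8077 to 9655 CPM, and 2 of them, Itgax and Batf3, were called lower. In the control libraries the 6 neutrophil markers summed to 2469 to 2771 CPM. The 6 mast cell and basophil markers summed to 2253 to 2443 CPM there. Most of the neutrophil sum was S100a8 and S100a9, with control means of 1053 and 1156 CPM. Most of the mast cell and basophil sum was Prss34 and Mcpt8, with control means of 1212 and 618 CPM. Sums of different lists therefore do not give the relative numbers of cells. T cell markers summed to 173 to 195 CPM in the control libraries. B cell markers were near 0, with 4 of 5 under 1 CPM.

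Few of the other genes of the pathway were called. Of 76 listed genes 75 were tested, 2 were called higher and 2 lower, against 4.66% and 5.94% of all genes, and the median log2 fold change was 0.045. Among the 12 other tested core subunits of the proteasome, the 8 further activators and assembly factors and the 9 chaperones of class I, no gene was called. Of 21 subunits of the 19S cap, Psmc3, one of its ATPases, was called higher at 0.24 (edgeR adjusted p = 0.0474). Of 8 other peptidases, Lap3, a cytosolic leucine aminopeptidase, fell from 65.3, 71.8 and 61.6 CPM to 51.5, 42.1 and 49.4 CPM (log2 fold change -0.48, SE 0.10, edgeR adjusted p = 0.00425). Its groups did not overlap.

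The molecules that receive the peptides were not called. B2m, the light chain of class I, was at 2713 ± 52.0 CPM in the control and 2926 ± 118 CPM in the DB2313 libraries (log2 fold change 0.11, edgeR adjusted p = 0.326). The heavy chains H2-K1 and H2-D1 had log2 fold changes of 0.07 and 0.06 (edgeR adjusted p = 0.628 and 0.679). The class I genes of the MHC share long similar stretches, and how reads matching several of them were counted is not given in the sources used here.

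Of 11 regulators, Rfxank was called higher and Irf2 lower. Nlrc5, the transactivator of class I genes, had a log2 fold change of -0.07 (edgeR adjusted p = 0.729) and Irf1, an interferon-induced activator of these genes, of -0.04 (edgeR adjusted p = 0.784). Rfxank, a subunit of the RFX complex at MHC promoters, rose from 11.5 ± 1.41 to 19.7 ± 0.738 CPM (log2 fold change 0.78, edgeR adjusted p = 0.00103), but 1341 bp of its exons are shared with Nr2c2ap on the opposite strand. Irf2 fell from 100.4 ± 2.95 to 84.8 ± 4.17 CPM (log2 fold change -0.24, edgeR adjusted p = 0.0494). The calls of Lap3 and Rfxank were present in all 16 alternatives, whereas that of Psmc3 was lost in 7 and that of Irf2 in 12. Psmc3 was lost with any library but DB2313 replicate 3 left out (edgeR adjusted p up to 0.214) and Irf2 with any but DB2313 replicate 1 (edgeR adjusted p up to 0.223), both also with a replicate block.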

How the data were processed

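RNA of 3 control and 3 DB2313 libraries of cultured mouse dendritic cells was sequenced on an Illumina instrument. The authors deposited 1 table of whole-number read counts, not normalized, with gene lengths and a column per library. The submitters' processing notes name CASAVA 1.8, HISAT2 2.0.5 and featureCounts 1.5.0-p3, whereas the methods of the study name LifeScope 2.5.1. Strand and multiple matches are not given in the sources used here. Coordinates are given as GRCm38, since 98.3% of the 54409 identifiers also in GENCODE M21 had identical ends there. For Psmb9 and Tapbp one end differed by a few bases, and the table's coordinates are printed.

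Groups were taken from the labelled treatment. The columns carry a short form for bone marrow dendritic cells or the name Spi1, each with a number, and were matched to the labels on that reading. All directions of change rest on it.

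Counts were tested in R 4.3.3 with edgeR 4.0.16 and its quasi-likelihood test (TMM, filterByExpr, group as the only term, Benjamini-Hochberg adjustment over 14174 genes, threshold 0.05). Adjusted p-values of a gene are from this fit where no other tool is named. CPM use the TMM-scaled library sizes. The procedure was tested on simulated data. DESeq2 1.42.0, voom of limma 3.58.1, other scalings and filters, a gene length offset, a replicate block and leaving out each library were alternatives. Ratios within a library were compared by exact permutation tests in scipy 1.17.1. Similar and overlapping genes were sought with blastn 2.17.0 and the annotation. Besides Psme2b, matches of at least 95% over 100 bp or more were short for Tapbp (20 genes) and Tapbpl (78 genes).

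The members, the gene lists, written from general knowledge, and the tests were chosen with earlier results of these data known. All members were named, with the constitutive catalytic subunits, B2m, H2-K1, H2-D1, Nlrc5, Irf1 and up to 3 called genes of each list. The values of 1 further gene are not reported here, and it was left out of the lists.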

Additional observations from a re-analysis of the deposited data

How the results depend on the processing

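With an offset for gene length, 1 member was called lower (Tapbp). Leaving out 1 library at a time, 0 to 3 members were called higher and 0 to 1 lower, those called being Psme2, Psme1 and Psmb9 without DB2313 replicate 3 and Tapbp without DB2313 replicate 1. In all other alternatives 0 members were called. Over all genes, 328 to 1097 were called higher and 411 to 1311 lower with 1 library left out. In the pathway lists 1 to 5 genes were called higher and 1 to 4 lower with 1 library left out. There 1 was higher with a replicate block, and 1 was lower with the size factors of DESeq2, with library totals, without a filter, with a replicate block, with a replicate block and length offset, and with Psme2 and Psme2b summed. The sign turned for Psmb8 (-0.012 with the length offset and -0.012 with block and offset, -0.030 to 0.067 with 1 library left out) and for Erap1 (0.0047 and 0.0024, and -0.12 to 0.058). No other member changed sign. With 1 library left out, the log2 ratio difference ranged from -0.14 to 0.048 for Psme1 to Psme2 and from -0.084 to 0.0054 for Tap1 to Psmb9, so both changed sign. Members called in an alternative had log2 fold changes of -0.21 for Tapbp with the length offset and, over the libraries left out, of -0.26 to -0.15 for Tapbp, 0.12 to 0.22 for Psmb9, 0.13 to 0.26 for Psme1 and 0.078 to 0.36 for Psme2. The alternatives called 5.07 to 16.6% of all genes. The cause of these shifts was not tested.

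Libraries of the same number did not deviate together, with correlations of their deviations from the group means of 0.0035, -0.024 and -0.12. With a replicate block 0 members were called, and 502 genes were higher and 629 lower.

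With 3 libraries a group and 1091 or more counts per library for each member, the spread between libraries sets the precision rather than depth. The groups hold too few libraries for a check of single outlying values.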
